A study of Mus musculus with 2756 samples.

Results

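The cells described here are the apical progenitors that the study's authors placed in the clusters AP.mid1 and AP.mid2, the intermediate-stage members of the AP class. They were chosen by the deposited cluster label alone, as every cell whose label starts with AP and is neither AP.early nor AP.late, and they number 423 of 2756 cells in the series and of 843 AP cells. AP.mid1 held 53.9% of these cells and AP.mid2 held 46.1%, and in all AP cells the shares were 27.0% and 23.1%, against 22.5% in AP.early and 27.3% in AP.late. In the study, mouse embryos received FlashTag, a dye that labels cells dividing at the ventricular surface, on 1 of 4 embryonic days (E12, E13, E14 and E15), and the presumptive primary somatosensory cortex was taken 1, 24 or 96 h later. The brightest 5% of labelled cells were sorted, captured on a C1 microfluidic chip, converted to cDNA by SMART-Seq v4 and sequenced, 1 library per cell. No mutation, drug or other treatment is named in the labels, and all groups share the dye, the dissection and the gate. The labels name no strain, animal, litter or replicate, so each day at each time was 1 sample, cells were summed within it, and a p-value here speaks of the spread between such sums alone, which may be technical.

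Apical progenitors, or radial glia, are the stem cells that line the ventricle of the developing cortex. They carry their nuclei to the ventricular surface to divide, first give rise to deep-layer and later to upper-layer neurons, partly through basal progenitors, and in the end turn to making glia. Pax6 and Sox2 are transcription factors of this stem cell state, Hes1 is a Notch target that holds cells in it, and Vim encodes the intermediate filament vimentin.

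Counts were reads. Per summed cluster, day and time, the AP.mid cells of 1 h held 0.794 to 39.3 M counts and those of 24 h held 0.808 to 7.63 M counts. A cell had a median of 318600 counts and 3820 detected genes in AP.mid1 and 350400 counts and 4494 genes in AP.mid2 at 1 h, against 320000 counts and 5040 genes in AP.early and 301200 counts and 4314 genes in AP.late. The median mitochondrial share of a cell was 5.55% in AP.mid1 and 4.8% in AP.mid2, against 4.75% in AP.early and 4.8% in AP.late. At 24 h it was 2.7% in AP.mid2. Each cell's title holds a code and number fields whose meaning the titles do not state, and all 2756 cells had combinations of their own. The code is called a run code here. Each run code held a single collection time: at 1 h, E12 shared a code with E14 and E13 with E15, and at 24 h E12 shared one with E13 and E14 with E15. Time and run code can therefore not be told apart. Embryos taken at 24 h were also about a day older than those of the same injection day taken at 1 h. Time since injection and embryonic age can thus not be told apart either.

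The marker genes fitted the AP name in both clusters. Pax6 stood at 488, 614, 504 and 700 CPM (the summed counts scaled to a fixed library total) from E12 to E15 in AP.mid1 and at 612, 611, 754 and 593 CPM in AP.mid2 at 1 h. It stood at 362, 816 and 730 CPM in AP.early (E12 to E14) and at 493, 600 and 698 CPM in AP.late (E13 to E15). Sox2 ranged from 56.7 to 145.6 CPM in AP.mid1 and from 121.3 to 181.7 CPM in AP.mid2, against 81.9 to 250.4 CPM in AP.early, and reached 312 CPM in AP.late. Hes1 ranged from 89.5 to 242.4 CPM in AP.mid1 and from 178.6 to 518 CPM in AP.mid2, and Vim from 445 to 2194 CPM in AP.mid1 and from 935 to 2051 CPM in AP.mid2. Over the days, the ranges of AP.mid1 and AP.mid2 overlapped in all 4 genes, and no gene kept the same order in every day. These markers thus did not tell AP.mid1 from AP.mid2. Not all groups overlapped: Sox2 was lower in every AP.mid1 sum than in any AP.late sum. Vim was lower in every AP.early sum than in any AP.late sum. Of 10 astrocyte markers 7 were in the table. They summed to 180.1 to 442.3 CPM in AP.mid1 and 332 to 435.6 CPM in AP.mid2 at 1 h, against 246.6 to 518.9 CPM in AP.early and 225.3 to 298.8 CPM in AP.late. Among them Aqp4 and Gfap were at or near 0 in both AP.mid clusters (at most 0.0763 CPM), and Gja1, a gap junction protein that radial glia also express, had 36.7 CPM over the days in AP.mid1 and 39.96 CPM in AP.mid2. The 12 interneuron markers summed, from E13 on, to 117.3 to 264.8 CPM in AP.mid1 and 55.2 to 137.8 CPM in AP.mid2, against 172.3 to 424.2 CPM in AP.early and 150.2 to 260.4 CPM in AP.late. At E12, from 4 and 5 cells, the sums of AP.mid1 (340.2 CPM) and AP.mid2 were each higher than on any later day. Both were then above AP.early (175.3 CPM). Gad1, which makes GABA, was at most 5.00 CPM except in the E15 AP.mid1 cells, which had 28.2 CPM. The part of such cells in the results was not tested. Eomes, the basal progenitor factor, was read in AP.mid1 and is described further on.

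The clusters differed in when their cells appeared. At 1 h, AP.mid1 held 4 cells at E12, 63 at E14 and 27 at E15, and its share of AP cells from E12 to E15 was 2.21% (95% Clopper-Pearson interval 0.605 to 5.56), 62.7% (55.6 to 69.4), 52.5% (43.2 to 61.7) and 12.7% (8.52 to 17.9). AP.mid1 thus peaked at E13 and E14, with intervals clear of those of E12 and E15. AP.mid2 held 5, 52, 33 and 62 cells at 1 h, a share of 2.76% (0.903 to 6.33), 25.9% (20.0 to 32.5), 27.5% (19.8 to 36.4) and 29.1% (23.1 to 35.7). Its share was low at E12 alone and the intervals of E13, E14 and E15 overlapped. AP.early held 95% of AP cells at E12 and 8, 6 and 0 cells on the later days, and AP.late held 0, 15 and 18 cells and, at E15, 58.2% of AP cells. The intervals cover counting error only.

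After 24 h few AP cells were left. AP.mid1 then held 3, 4, 1 and 0 cells from E12 to E15 and AP.mid2 held 8, 8, 12 and 7. For AP.mid1 at E15, 0 of 44 AP cells allows a share of up to 6.82% by the limit of 3 cells over the total, and the Clopper-Pearson interval reaches 8.04%. At 96 h AP.mid1 held 0 cells and AP.mid2 held 1, 3, 3 and 1, from AP totals of 4, 5, 3 and 4 cells. Over the 4 days, AP.mid1 averaged 10.7% ± 10.7 of AP cells at 24 h and 32.5% ± 29.6 at 1 h (SD, n = 4 days each), a difference of -21.8 percentage points with a two-sided exact permutation p of 0.314 (adjusted over 3 tests 0.471). AP.mid2 averaged 36.7% ± 16.8 at 24 h and 21.3% ± 12.4 at 1 h, a difference of 15.4 points (exact permutation p 0.257, adjusted 0.471). With all sorted cells as the denominator AP.mid2 was lower at 24 h, by -14.4 points. The shares of both clusters together were 47.4% ± 26.2 at 24 h and 53.8% ± 38.4 at 1 h (exact permutation p 0.829, adjusted 0.829). None of the 3 differences between times passed the test, and 4 against 4 conditions allow no p below 0.0286. The test did not pair the times by injection day, so the spread between days counts against a difference between times.

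**Figure D1:**
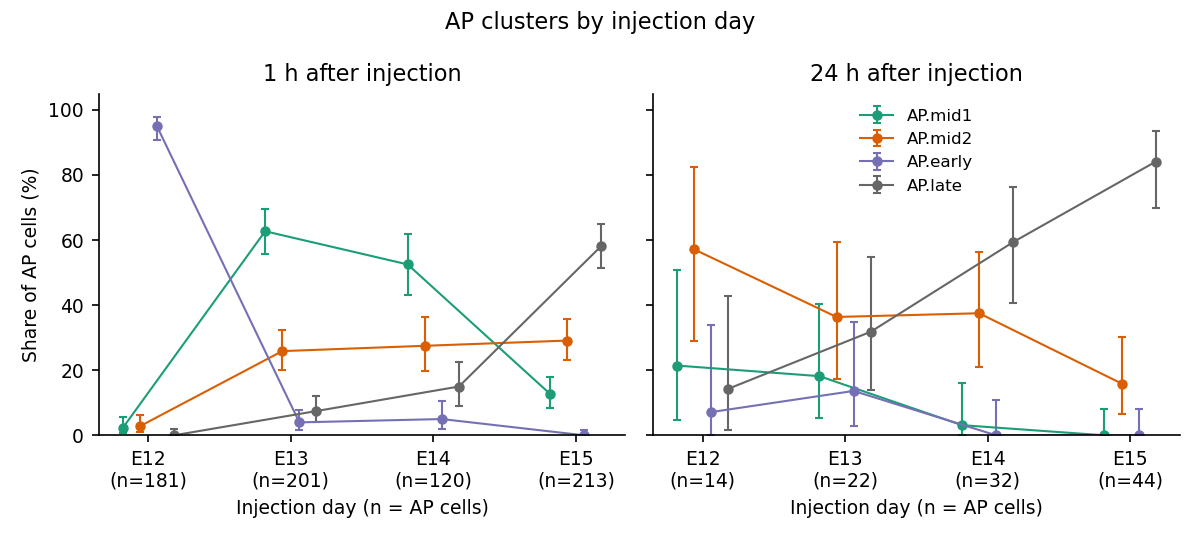
Share of AP cells (%) in AP.mid1, AP.mid2, AP.early and AP.late against injection day, at 1 h (left) and 24 h (right) after FlashTag, with 95% Clopper-Pearson intervals and the number of AP cells under each day. AP.mid1 holds 62.7% and 52.5% of AP cells at E13 and E14 of 1 h, while AP.mid2 stays between 25.9% and 29.1% from E13 to E15.

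The cluster labels were made from the expression of these cells, so every comparison of clusters below is a description without a test. Clusters were compared within an injection day, by the log2 ratio of CPM with 5 CPM added, in days where both held at least 4 cells. A gene was counted where it differed at least 2-fold the same way in every such day and averaged 20 CPM or more across those sums.

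Genes of mitosis set AP.mid2 apart from AP.mid1. At 1 h, over 4 days, 100 of 6752 genes were at least 2-fold higher in AP.mid2 than in AP.mid1 (1.48%) and 6 lower (0.0889%). Of 36 listed genes of G2 and M phase, 35 were measured at that level, 23 were at least 2-fold higher in every day and 0 lower, with a median log2 ratio of 2.48 against 0.12 over all genes tested. Among the 10 genes with the largest ratio in their least different day were genes known for division: Kif20b, Kif22 (kinesins), Cep55 (abscission of daughter cells), Casc5 and Spc25 (kinetochore), Hmmr, Ckap2l and Aspm (spindle) and Cdc20 (activator of the anaphase-promoting complex).

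Kif20b had 252.7, 108.6, 143.7 and 125.6 CPM from E12 to E15 in AP.mid2 and 1.26, 2.08, 0.874 and 0.440 CPM in AP.mid1. Cdc20 had 696, 485, 394 and 475 CPM in AP.mid2 and 75.6, 81.4, 64.7 and 74.7 CPM in AP.mid1. Aspm had 256.6, 372, 440 and 354 CPM in AP.mid2 and 8.82, 25.6, 35.9 and 58.7 CPM in AP.mid1. For each of the 3 genes, the lowest AP.mid2 value lay above the highest AP.mid1 value. Further members past the 2-fold mark were Top2a, which untangles DNA (log2 ratios 1.77 to 3.24), Plk1 (2.00 to 5.64) and Aurka (1.29 to 3.08), both mitotic kinases, and Cenpf, a kinetochore protein (1.89 to 2.35). In summed CPM of the list, AP.mid2 reached 18840, 13110, 13580 and 14640 from E12 to E15, against 6928, 2351, 2520 and 3601 in AP.mid1.

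The promoters of these genes were read because many genes of G2 and M phase are known to carry the cell cycle genes homology region, a short element bound by the MuvB core with B-Myb or DREAM partners. Both strands of the 300 bases around each start in RefSeq (GRCm38.p6) were searched for TTTGAA and TTCGAA. Of the genes with the largest ratio, 8 were in the promoter table and 8 of these 8 held a match, against 19.2% of all 32851 promoters. Among genes with 1 promoter in the table, 38 of 73 that were higher in AP.mid2 than in AP.mid1 held a match (52.1%), against 526 of 4040 tested genes that passed in neither direction (13.0%). The genes were chosen by expression, so these shares are descriptions, and a match is not a binding site. The sequences of 6 promoters from 70 bases before to 30 after the start follow, 5′ to 3′ on the strand of the gene, with matches on either strand in capitals.
Kif20b, chr19:34922288-34922387, + strand: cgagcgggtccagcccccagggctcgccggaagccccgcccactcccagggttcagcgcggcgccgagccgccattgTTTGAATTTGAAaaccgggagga
Kif22, chr7:127042391-127042490, - strand: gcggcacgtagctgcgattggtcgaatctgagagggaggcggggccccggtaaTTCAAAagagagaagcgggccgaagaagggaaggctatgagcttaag
Hmmr, chr11:40733408-40733507, - strand: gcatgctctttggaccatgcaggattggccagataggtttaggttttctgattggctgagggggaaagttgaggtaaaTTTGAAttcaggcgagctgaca
Ckap2l, chr2:129297183-129297282, - strand: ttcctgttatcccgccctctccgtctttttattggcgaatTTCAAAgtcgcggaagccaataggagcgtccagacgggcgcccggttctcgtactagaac
Cdc20, chr4:118437314-118437413, - strand: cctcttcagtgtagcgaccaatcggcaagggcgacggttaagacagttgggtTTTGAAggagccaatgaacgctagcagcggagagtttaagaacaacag
Aspm, chr1:139454703-139454802, + strand: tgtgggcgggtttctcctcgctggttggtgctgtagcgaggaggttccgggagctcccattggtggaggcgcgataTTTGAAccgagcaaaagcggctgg
Kif20b carries a pair of matches side by side just after its start. The window shown is the part of the 300 bases nearest the start, and Kif22 and Ckap2l each had 1 further match outside it.

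Genes lower in AP.mid2 than in AP.mid1 were few over the 4 days. Named by the rule were Ly6e, a surface protein, with 0, 14.8, 3.06 and 24.2 CPM in AP.mid2 and 289.8, 56.9, 63.1 and 104.7 CPM in AP.mid1, and Mtss1 and Mcm2. Mcm2, a subunit of the replicative helicase, had 2.77, 69.03, 45.5 and 71.3 CPM in AP.mid2 and 47.9, 180.6, 142.7 and 148.7 CPM in AP.mid1. Of 20 S phase genes, Mcm2 was the 1 lower, and the list's median log2 ratio was -0.20.

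The basal progenitor genes gave the other difference, in 3 of the 4 days. Without E12, where the sums rest on 5 and 4 cells, 150 genes were higher and 36 lower, and 7 of 8 basal progenitor markers were lower in AP.mid2, with a list median of -2.01. With E12 included 0 of 9 passed in either direction. Eomes had 157.4, 22.6, 10.1 and 54.3 CPM from E12 to E15 in AP.mid2, and its log2 ratio to AP.mid1 was 4.70 at E12 and -2.18, -3.79 and -1.54 from E13 to E15. Gadd45g, a stress and differentiation gene, had 20.1, 26.9 and 46.9 CPM from E13 to E15 in AP.mid2 and 264.2, 249.4 and 285.6 CPM in AP.mid1. Insm1, Neurog2, Hes6 and Mfng, which act in the step from apical to basal progenitor or in Notch signalling there, were each lower in AP.mid2 from E13 to E15, with log2 ratios from -1.17 to -3.33, and higher at E12. The list summed to 300 to 338 CPM in AP.mid2 of E13 to E15 and to 1353 to 1465 CPM in AP.mid1. Ribosomal protein genes also stood apart: their sum was 81600 to 109200 CPM in AP.mid2 and 121300 to 139900 CPM in AP.mid1, and it was 85690 to 103700 CPM in AP.early and 73100 to 107000 CPM in AP.late. Many of these genes have near-identical pseudogenes, so single members are not given.

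**Figure D2:**
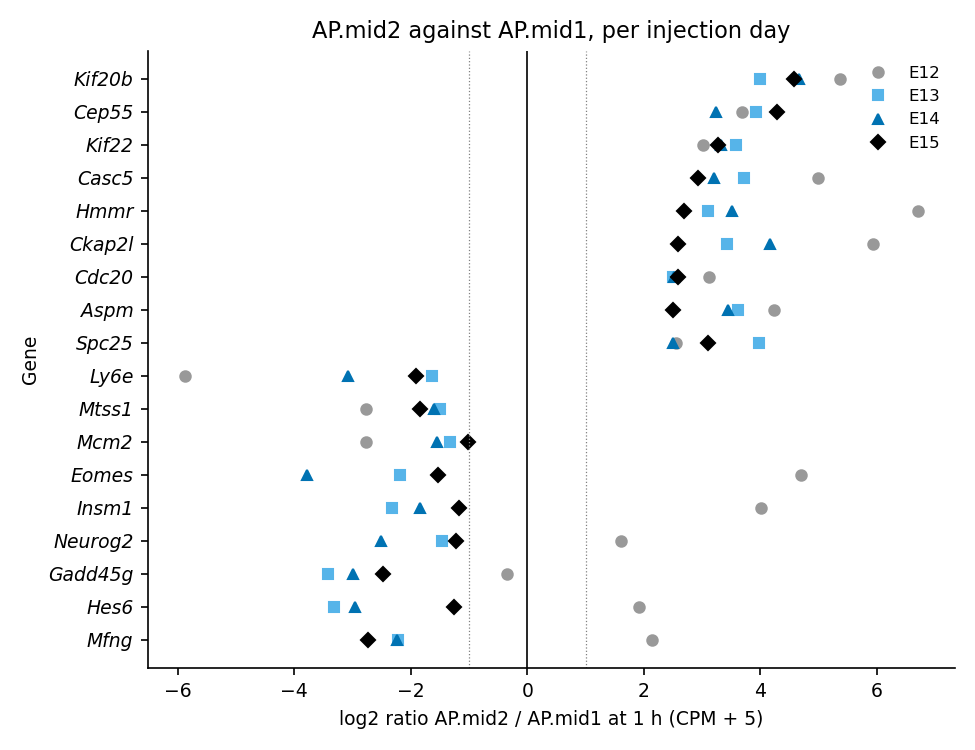
Log2 ratio of AP.mid2 to AP.mid1 at 1 h (x axis, CPM with 5 added) for 12 genes named by the rule and 6 basal progenitor markers, 1 symbol per injection day, with dotted lines at 2-fold. Mitosis genes lie to the right in all 4 days, and 5 of the 6 basal progenitor markers lie to the right at E12 and to the left from E13 to E15.

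Against AP.late, AP.mid2 again led with mitosis genes. At 1 h, over E13 to E15, 2.32% of 7208 genes were higher in AP.mid2 than in AP.late and 0.902% (65 genes) were lower. Of the G2 and M phase list 34 of 36 members were higher, with a median log2 ratio of 3.04 against -0.02 over all genes. Ccnb1, the cyclin of mitotic entry, had 571, 589 and 498 CPM from E13 to E15 in AP.mid2 and 22.8, 40.0 and 48.4 CPM in AP.late. Birc5, of the chromosomal passenger complex, had 709, 654 and 484 CPM in AP.mid2 and 54, 29.2 and 46.4 CPM in AP.late. Casc5, Ckap2l, Nusap1, Aspm, Bub1, Gas2l3 and Cdkn3 were also among the 10 genes with the largest ratios.

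Basal progenitor markers were again among the lower genes. Of 9 measured, 6 (of the 65 lower genes in all) were at least 2-fold lower in every day in AP.mid2 than in AP.late, and the list's median log2 ratio was -2.20. Insm1 had 14.8, 23.4 and 39.3 CPM in AP.mid2 and 152.1, 181.5 and 124.7 CPM in AP.late. Neurog2, the proneural factor, had 80.4, 31.0 and 51.1 CPM in AP.mid2 and 378, 418 and 138.5 CPM in AP.late. Dll1, a Notch ligand, Eomes, Gadd45g and Hes6 were the other members lower in every day. Hes5, a Notch target, was higher in every day, with 46.9, 37.1 and 39.3 CPM in AP.mid2 and 10.1, 7.23 and 15.8 CPM in AP.late. Of 20 late and gliogenic progenitor genes, 0 passed in either direction and the median log2 ratio was -0.05.

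AP.mid1 was also above AP.late in mitosis genes, by a smaller ratio than AP.mid2. Over E13 to E15, 0.511% of 7045 genes (36 genes) were higher in AP.mid1 than in AP.late and 2.04% were lower. Of 26 measured G2 and M phase genes 2 were higher, Cdca8 and Nusap1, with a list median log2 ratio of 0.70 against -0.13 over all genes, and 4 or 5 were higher with 1 day left out. The list summed to 2351, 2520 and 3601 CPM from E13 to E15 in AP.mid1 and to 1312, 1818 and 2012 CPM in AP.late. Of 9 basal progenitor markers 0 passed, with a median of 0.11. Pttg1, which encodes securin, had 328, 418 and 631 CPM in AP.mid1 and 61.9, 131.8 and 298.8 CPM in AP.late. Among the lower genes, Apoe, a lipid carrier of glia, had 2.14, 14.0 and 8.66 CPM from E13 to E15 in AP.mid1 and 21.4, 164.7 and 141.6 CPM in AP.late. Sorbs2, an adaptor of the actin cytoskeleton, had 49.7, 31.2 and 10.3 CPM in AP.mid1 and 200.4, 168.1 and 66.9 CPM in AP.late. Plce1, a phospholipase, had 91.98, 75.5 and 40.1 CPM in AP.mid1 and 292.5, 432 and 193.7 CPM in AP.late.

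Members of other lists were lower in AP.mid1 as well. Slc12a2, a chloride carrier of the ion transport list, was lower in every day. It had 62.8, 69.4 and 22.8 CPM in AP.mid1 and 158.4, 154.6 and 62.5 CPM in AP.late. Jag1, a Notch ligand, had 17.8, 5.58 and 2.50 CPM in AP.mid1 and 114.1, 42.6 and 11.6 CPM in AP.late. Of 20 late and gliogenic genes Apoe alone was lower in every day, and the list's median log2 ratio was -0.36.

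Against AP.early both clusters had lower members of the S phase list, and they parted in mitosis genes. These comparisons rest on E12 to E14, where as few as 4 AP.mid cells and, at E13 and E14, 8 and 6 AP.early cells were summed. Of the 6 AP.early cells of E14, 4 carry the title field 11, the first of the E14 cells under a run code where fields 1 to 10 hold E12 cells. The part of this field in the result was not tested, and values without E14 are given below. In AP.mid1, 2.02% of 6767 genes were higher than in AP.early and 4.08% lower. In AP.mid2, 2.55% of 6910 genes were higher and 2.52% lower.

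Of the S phase genes, 6 of 27 were lower in every day in AP.mid1 than in AP.early, with a median log2 ratio of -1.40, and 12 of 26 were lower in AP.mid2, with a median of -1.80. Over all genes the medians were -0.18 and 0.00. The list summed to 6411, 2911 and 2021 CPM from E12 to E14 in AP.mid1, 2834, 2231 and 2321 CPM in AP.mid2, and 6428, 8723 and 6542 CPM in AP.early, so that at E12, where AP.early had its most cells, AP.mid1 (4 cells) and AP.early were alike in the sum. Pcna, the sliding clamp of DNA replication, had 76.9, 63.3 and 56.5 CPM from E12 to E14 in AP.mid1 and 57.6, 43.96 and 67.6 CPM in AP.mid2, against at least 192.6 CPM in AP.early. Uhrf1, which takes part in keeping up DNA methylation after replication, had 172.6, 90.9 and 53.4 CPM in AP.mid1, 179.5, 118.3 and 231.9 CPM in AP.mid2, and 395, 396 and 480 CPM in AP.early. Both clusters lay below AP.early in every day for these genes. Without E14, 9 of 27 S phase genes were lower in AP.mid1 and 15 of 26 in AP.mid2. Over all genes, 925 of 6461 in AP.mid1 and 613 of 6718 in AP.mid2 were then lower.

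Of the G2 and M phase genes, 7 of 33 were lower in every day in AP.mid1 than in AP.early and 0 higher, while in AP.mid2 15 of 36 were higher and 0 lower. The medians were -0.84 and 1.50, and without E14 the counts were 10 lower and 1 higher of 34 in AP.mid1 and 18 higher of 36 in AP.mid2. Over all genes without E14, 925 were lower and 361 higher of 6461 in AP.mid1, and 398 were higher of 6718 in AP.mid2. In summed CPM AP.mid1 was not lower at E12, with 6928 CPM against 6452 CPM in AP.early. Nusap1, a spindle protein, and Tubb4b, a tubulin, were the 2 genes past the 2-fold mark in opposite directions. Nusap1 had 35.3, 39.4 and 48.2 CPM in AP.mid1 and 505, 475 and 409.5 CPM in AP.mid2, with log2 ratios to AP.early of -1.99, -1.62 and -1.22 in AP.mid1 and 1.67, 1.81 and 1.74 in AP.mid2. In AP.mid1 the 10 genes named as lower included genes of replication and repair such as Esco2, Tk1, Exo1, Rad54l and Brca2 besides Kif20b. Tk1, thymidine kinase, had 3.78, 6.58 and 19.6 CPM in AP.mid1 and 115.5, 108.9 and 468 CPM in AP.early.

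Outside the cell cycle, Foxp2, a transcription factor, was among the genes lower in both clusters. It had 2.52, 62.9 and 70.7 CPM from E12 to E14 in AP.mid1, 0, 24.3 and 9.25 CPM in AP.mid2, and 78.1, 312 and 295.5 CPM in AP.early. Igfbpl1, an insulin-like growth factor binding protein family member, had 5.04, 21.6 and 15.6 CPM in AP.mid1, 6.65, 3.42 and 5.45 CPM in AP.mid2, and 72.3, 126.9 and 88.2 CPM in AP.early. Zbtb20, a factor of late progenitors and astrocytes, was higher in both, with 391, 138.8 and 267.3 CPM in AP.mid1, 208.4, 336 and 414 CPM in AP.mid2, and 28.1, 58.9 and 102.2 CPM in AP.early. It was the 1 late and gliogenic gene higher in every day, of 17 measured for AP.mid1 (list median -0.24) and of 18 for AP.mid2 (0.22). Clu, a chaperone of glia, was lower in every day in AP.mid2, with log2 ratios of -1.62, -2.31 and -2.36. Emx2 and Wnt7a, of cortical patterning and Wnt signalling, were lower in AP.mid1. Emx2 had 10.1, 32.4 and 28.5 CPM in AP.mid1 and 126.5, 140 and 138.6 CPM in AP.early. The 10 genes named as higher in AP.mid1, among them Aamdc, Snapc4 and Slc16a6, had at most 11.3 CPM (Dido1) at E13 and 7.00 CPM at E14 in AP.early, where 8 and 6 cells were summed.

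**Figure D3:**
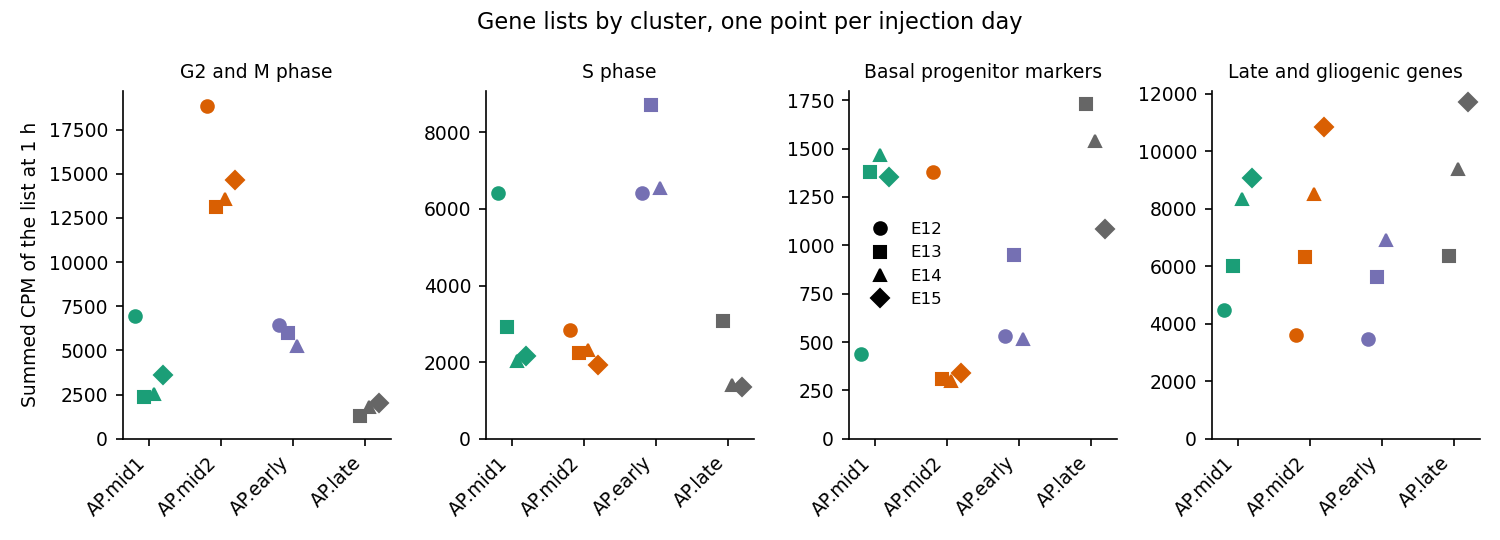
Summed CPM of 4 gene lists at 1 h (y axis, from 0) in AP.mid1, AP.mid2, AP.early and AP.late, 1 symbol per injection day with at least 4 cells. AP.mid2 is highest in G2 and M phase genes in every day (13110 to 18840) and AP.early in S phase genes in the days it was measured (6428 to 8723). From E13 on, basal progenitor markers are highest in AP.mid1 (1353 to 1465) and AP.late (1084 to 1729). At E12 they reach 1380 in AP.mid2, from 5 cells.

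With injection days pooled, both clusters lay between AP.early and AP.late for most genes that separate these clusters. At 1 h, 1068 genes differed at least 2-fold between all AP.late and all AP.early cells. On a scale with AP.early at 0 and AP.late at 1, the median gene stood at 0.63 in AP.mid1 and at 0.51 in AP.mid2, and 81% and 73.2% of genes lay between the ends. For the 568 genes higher in AP.late the medians were alike, at 0.58 in AP.mid1 and 0.62 in AP.mid2. For the 500 genes higher in AP.early they were 0.71 in AP.mid1 and 0.37 in AP.mid2, and 26.2% of these genes were beyond AP.early in AP.mid2, against 2.2% in AP.mid1. The birthdate score that the authors deposited with the labels had a median of 0.492 in AP.mid1 and 0.38 in AP.mid2, against 0.192 in AP.early and 0.592 in AP.late at 1 h, so that its order also put both clusters between the ends. The genes were chosen for their distance between the end clusters and the labels rest on the same cells, so the positions are a description and do not test the names. Unlike the comparisons within a day, the scale pooled the days. At 1 h most AP.early cells were of E12, most AP.late cells of E15 and most AP.mid1 cells of E13 and E14. The scale therefore holds injection day as well as cluster, and the positions cannot tell these apart.

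The mitosis genes of AP.mid2 recurred in the 24 h samples. There, over E13 to E15, 2.03% of 7151 genes were higher in AP.mid2 than in AP.late and 2.2% lower, from 7 to 12 AP.mid2 cells and 7 to 37 AP.late cells a day. Of 35 G2 and M phase genes 32 were higher and 0 lower, with a median log2 ratio of 4.06 against -0.07 over all genes. Ccnb1 had 429, 560 and 596 CPM in AP.mid2 and 5.56, 0.0858 and 13.1 CPM in AP.late. Tpx2, an activator of Aurora A, had 459, 555 and 1247 CPM in AP.mid2 and 8.80, 3.17 and 54.2 CPM in AP.late. Among 6451 genes measured at both times, 81 were higher at both, which is 52.3% of those called at 1 h and 61.8% of those called at 24 h. Of the genes lower, 3 were shared, 7.32% of the 41 called at 1 h and 2.29% of those called at 24 h. The cells and run codes of the 2 times differ, but all cells were clustered together, so the recurrence is a description.

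Few members of the other progenitor lists differed in every day at 24 h. Of 8 basal progenitor markers 1 was lower, Neurog2, with a list median of -1.42, and Eomes, Hes6, Btg2 and Mfng were higher in AP.mid2 at E13, by 1.19, 1.01, 2.13 and 4.97 (log2), and lower at E14 and E15. Of 7 early progenitor genes 1 was higher, Hmga2, and of 22 late and gliogenic genes 1 was lower, Sparc. Neurog2 had 77.3, 70.1 and 8.62 CPM from E13 to E15 in AP.mid2 and 241.2, 263.9 and 96.0 CPM in AP.late. Hmga2, a chromatin protein of early progenitors, had 77.3, 54.6 and 65.2 CPM in AP.mid2 and 0.231, 1.89 and 0.0953 CPM in AP.late. Sparc, a secreted matrix protein of late progenitors, had 82.9, 119.2 and 420 CPM in AP.mid2 and 244.6, 368 and 957 CPM in AP.late. Lrp8, a reelin receptor, and Pola1, the catalytic subunit of DNA polymerase alpha, were among the 10 named lower.

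**Figure D4:**
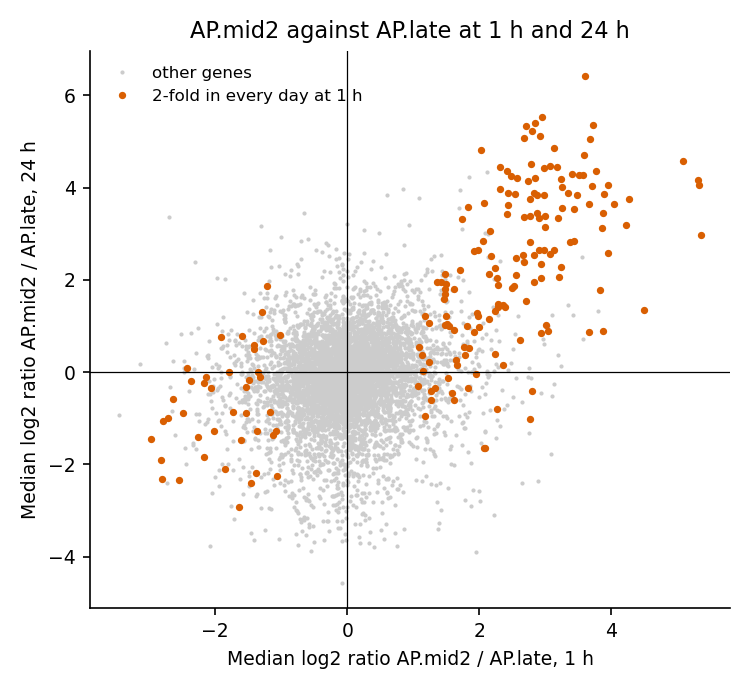
Median log2 ratio over E13 to E15 of AP.mid2 to AP.late at 1 h (x axis) and at 24 h (y axis), 1 point per gene for 6451 genes, with genes past 2-fold in every day at 1 h in orange. The genes higher at 1 h lie mostly in the upper right, with a median log2 ratio of 2.53 at 24 h, and those lower at 1 h have a median of -0.87.

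Differences within a cluster were tested across samples. For AP.mid2, 8 sums (4 days at 24 h and at 1 h) were fitted with edgeR's quasi-likelihood test on collection time and injection day. The time term holds the greater embryonic age of the 24 h cells and their run code as well as time since injection. Between 24 h and 1 h, 0 of 8696 genes (0.0%) passed an adjusted p of 0.05, and 443 passed an unadjusted p under 0.05, with 2.35% of genes higher and 2.75% lower. DESeq2 called 86 genes (0.989%) and limma voom with quality weights, chosen after seeing the data, called 25. No gene met the rule for naming, so the genes below were singled out after their values were seen.

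Fabp7, a lipid-binding protein of radial glia, had 1743, 2032, 2774 and 5080 CPM from E12 to E15 at 24 h and 275.4, 823, 1501 and 2621 CPM at 1 h in AP.mid2. It was higher at 24 h in all 4 days, by 1.44 ± 0.23 (log2, SE), with an adjusted p of 0.22 in edgeR's quasi-likelihood test, 1.56e-07 in DESeq2 and 2.29e-08 in voom. Neurod6, a factor of neurons, had 456, 221.5, 255.9 and 93.9 CPM at 24 h and 11.6, 18.2, 16.9 and 50.4 CPM at 1 h, a difference of 3.43 ± 0.68 (adjusted p 0.35 in edgeR's test, 1.36e-05 in DESeq2 and 0.0158 in voom). H3f3b, which encodes histone H3.3, had 4363, 3955, 2098 and 2125 CPM at 24 h and 1579, 1362, 1447 and 1512 CPM at 1 h (1.02 ± 0.19, adjusted p 0.35 in edgeR's test, 0.000141 in DESeq2 and 0.00038 in voom). E12 and E13, the high days of H3f3b at 24 h, share a run code. In AP.late, Fabp7 had 1940, 2650 and 3303 CPM from E13 to E15 at 24 h and 382, 617 and 1873 CPM at 1 h. Neurod6 there had 254.6, 177.2 and 133.7 CPM at 24 h and 14.6, 37.1 and 65.9 CPM at 1 h. H3f3b there had 2063, 1810 and 1851 CPM at 24 h and 1781, 1757 and 1745 CPM at 1 h. In AP.mid2, 13 of 16 neuron markers had a higher fitted level at 24 h, 6 of them at an unadjusted p under 0.05, with a median log2 difference of 2.46 against -0.04 over all genes. The neuron list summed to 523 to 2224 CPM at 24 h and 244.3 to 595 CPM at 1 h in AP.mid2, and in AP.late to 973 to 1481 CPM at 24 h and 441 to 663 CPM at 1 h. AP cells were 14, 22, 32 and 44 of the cells sorted from E12 to E15 at 24 h, and the part of RNA from other cells in these levels was not tested. Of 23 late and gliogenic genes 19 were higher in the fit at 24 h, with 6 genes higher and 0 lower at an unadjusted p under 0.05 and a median of 0.68.

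The slope on injection day over the same 8 sums passed in 0 of 8696 genes (0.0%) in edgeR's quasi-likelihood test, with 560 at an unadjusted p under 0.05, 3.63% of genes positive and 2.81% negative. DESeq2 called 2.5% of genes and voom 1.22%. Late and gliogenic genes went with the day: 22 of 23 slopes were positive, 11 at an unadjusted p under 0.05, with a median of 0.54 per day against 0.04 over all genes. Fabp7 was higher on each later day at both times, with a slope of 0.72 ± 0.10 log2 per day (adjusted p 0.064 in edgeR's test, 1.03e-08 in DESeq2 and 5.13e-10 in voom). Pea15a, an ERK-binding protein, had 505, 940, 1141 and 1468 CPM from E12 to E15 at 24 h and 372, 482, 910 and 1255 CPM at 1 h. Its slope was 0.51 ± 0.09 per day (adjusted p 0.12 in edgeR's test, 0.000416 in DESeq2 and 9.85e-06 in voom). Mt2, a metallothionein, had 231.2, 457, 417 and 1216 CPM at 24 h and 116.4, 229.9, 482 and 451 CPM at 1 h, with a slope of 0.68 ± 0.13 (adjusted p 0.18 in edgeR's test, 0.00163 in DESeq2 and 0.0471 in voom). Ddah1, an enzyme that breaks down dimethylarginine, had 458, 317, 717 and 1027 CPM at 24 h and 271.5, 394, 746 and 1091 CPM at 1 h. In AP.late at 1 h, Pea15a had 703, 854 and 1230 CPM from E13 to E15 and Ddah1 had 535, 555 and 1073 CPM. Mt2 there had 271.7, 249.8 and 400 CPM. Levels higher at E15 than at E13 were thus not particular to AP.mid2 for these genes or for Fabp7.

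Basal progenitor and a few mitosis genes had negative slopes in AP.mid2. Of 9 basal progenitor markers 8 slopes were negative, 5 at an unadjusted p under 0.05, with a median of -0.74 per day. Elavl4, an RNA-binding protein of neuronal differentiation on that list, had 375, 111.8, 96.0 and 19.5 CPM from E12 to E15 at 24 h and 240.5, 62.8, 63.7 and 29.6 CPM at 1 h, with a slope of -1.13 ± 0.22 (adjusted p 0.18 in edgeR's test, 0.000416 in DESeq2 and 0.0883 in voom). Top2a had 1576, 974, 484 and 345 CPM at 24 h and 2737, 719, 789 and 734 CPM at 1 h (-0.71 ± 0.12, adjusted p 0.12 in edgeR's test, 3.83e-05 in DESeq2 and 0.254 in voom). Spc25 had 904, 555, 212.9 and 261.6 CPM at 24 h and 694, 493, 216.7 and 217.3 CPM at 1 h (-0.67 ± 0.12, adjusted p 0.12 in edgeR's test, 0.000776 in DESeq2 and 0.00082 in voom). In these genes E12 was high at both times, from 8 cells at 24 h and 5 at 1 h. Over the whole list of G2 and M phase the median slope was -0.04, with 7 genes negative and 1 positive at an unadjusted p under 0.05 among 36.

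For AP.mid1 the slope could be fitted at 1 h alone, over 4 sums with 2 residual degrees of freedom. In edgeR's quasi-likelihood test 0 of 8192 genes (0.0%) passed, with 658 at an unadjusted p under 0.05, 1.97% of genes positive and 6.07% negative. DESeq2 called 3.21% of genes and voom 0.317%. Leaving out 1 day left the count at 0 without E12 and called 7.9% of genes without E13, 0.542% without E14 and 2.42% without E15, with 1 residual degree of freedom. Fabp7 had 165.1, 625, 1019 and 1675 CPM from E12 to E15, a slope of 0.98 ± 0.17 per day (adjusted p 0.28 in edgeR's test, 0.00989 in DESeq2 and 0.000141 in voom). Dbi, an acyl-CoA-binding protein, had 829, 1598, 2737 and 3246 CPM (0.59 ± 0.11, adjusted p 0.28 in edgeR's test, 0.155 in DESeq2 and 2.96e-10 in voom). Mfge8, a secreted glycoprotein, had 1.26, 32.6, 166.6 and 292.7 CPM (2.23 ± 0.50, adjusted p 0.31 in edgeR's test, 0.000234 in DESeq2 and 0.00718 in voom). Igf2bp2, an RNA-binding protein of early progenitors, had 755, 119.4, 107.6 and 31.0 CPM (-1.52 ± 0.27, adjusted p 0.28 in edgeR's test, 0.000131 in DESeq2 and 0.545 in voom). Of 18 late and gliogenic genes 16 slopes were positive, with a median of 0.82 against 0.24 over all genes, and of 8 early progenitor genes 7 were negative, with a median of -0.75. Of 24 S phase genes 10 were negative and 0 positive at an unadjusted p under 0.05. The E12 sum, from 4 cells, reached 6411 CPM in S phase genes, against 2021 to 2911 CPM from E13 to E15.

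**Figure D5:**
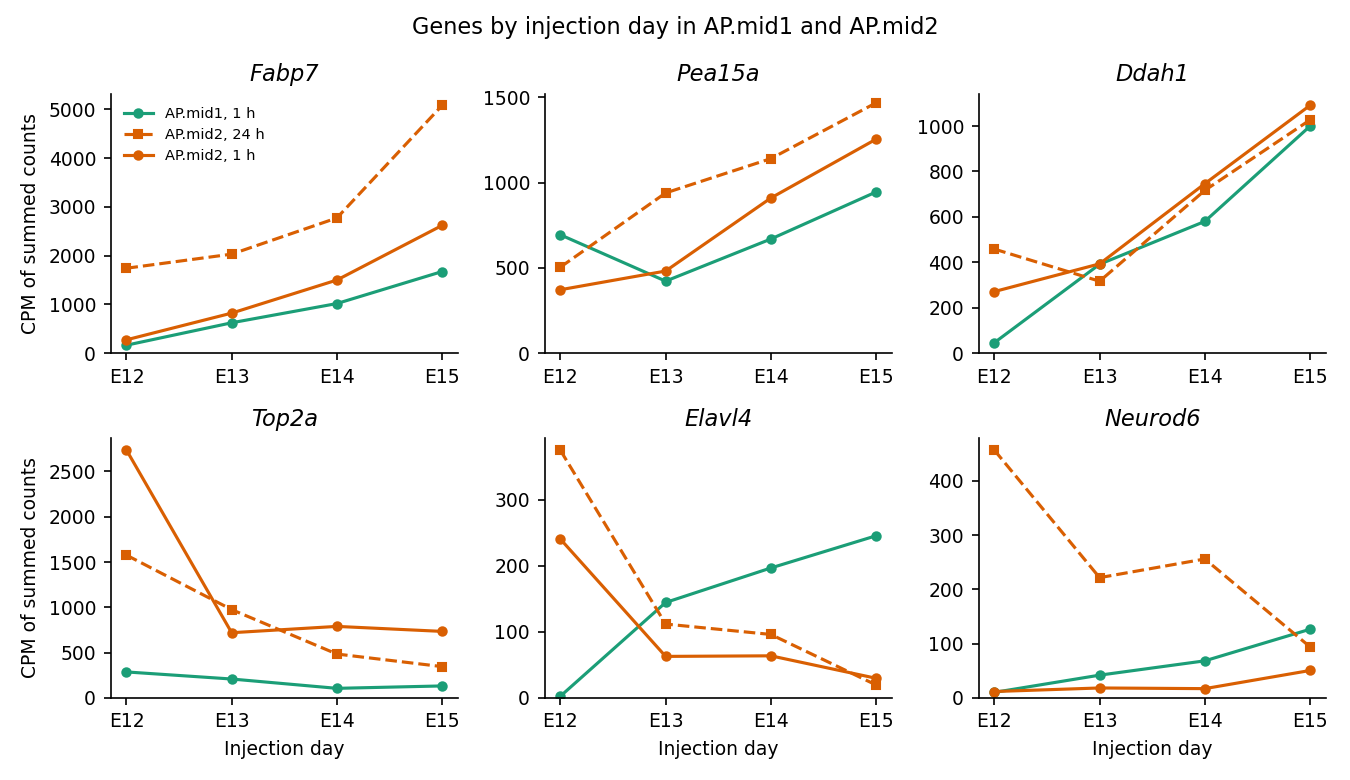
CPM of summed counts (y axis, from 0) of 6 genes against injection day in AP.mid1 at 1 h, AP.mid2 at 24 h (dashed) and AP.mid2 at 1 h, 1 point per day. Fabp7 is higher on each later day in all 3 series, Elavl4 is lowest at E15 in AP.mid2 and highest at E15 in AP.mid1, and Neurod6 is higher at 24 h than at 1 h in AP.mid2 in every day.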

How the data were processed

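The deposited table holds raw counts of 16441 genes in 2756 cells, 1 cell per sample. The authors used GRCm38, TopHat2 2.0.13 and UMI-tools, per the submitters' processing notes, which give no roles. The counts are reads, since no cell's total was below 0.987 times the reads given in its label, and reads of SMART-Seq v4 are not independent molecules. Cluster, injection day, time, mitochondrial percent and the authors' birthdate and differentiation scores were taken from the labels. The members and gene lists were chosen with earlier results of these data known.

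Counts were summed over the cells of a cluster, day and time and scaled to CPM. Sums of at least 4 cells were compared within day (Python 3.11.15, pandas 2.3.3) with a pseudocount of 5 CPM, a mean of at least 20 CPM and a 2-fold rule. Up to 10 genes per direction with a mean of at least 50 CPM were named, ranked by their least different day and leaving out predicted, ribosomal protein and mitochondrial genes. A few genes chosen in this way are left unreported. List members were given as examples, and Pax6, Sox2, Hes1 and Vim throughout. Differences within AP.mid1 and AP.mid2 were fitted with edgeR 4.0.16 (R 4.3.3; TMM, quasi-likelihood test, at least 10 CPM in 3 sums for AP.mid2 and in 2 for AP.mid1) with Benjamini-Hochberg adjustment over all genes, at 0.05. DESeq2 1.42.0 and limma 3.58.1 (voom) were alternatives, with other pseudocounts, filters, scalings, cell minima and single sums left out. Shares were compared by exact permutation over days, not paired by day (scipy 1.17.1). The edgeR step was tested on simulated data, whose outcome is not given here. The fitted spread between sums (common biological coefficient of variation) was 101% over the 8 AP.mid2 sums, with 5 residual degrees of freedom. It was 90.4% over the 4 AP.mid1 sums. With so wide a spread, a count of 0 genes passed does not show that no gene changed. Sums of 4 to 12 cells are the least precise, and promoter sequences are RefSeq's.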

Additional observations from a re-analysis of the deposited data

Results flagged for a closer look

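Of 65 groups of 4 days examined, 9 had a day that stood far from the others by Dixon's criterion, where chance gives about 1 in 20. At E12, where few cells were summed, lay the AP.mid2 share of AP cells at 1 h (2.76%), Top2a in AP.mid2 (2737 CPM), Elavl4 in AP.mid2 (240.5 CPM), Spc25 in AP.mid1 (114.7 CPM) and Igf2bp2 in AP.mid1 (755 CPM), and the log2 ratio of AP.mid2 to AP.mid1 of Cdc20 (3.12), all at 1 h. The other 3 were Pax6 at E14 (754 CPM, high), Sox2 at E13 (121.3 CPM, low) and Neurod6 at E15 (50.4 CPM, high), all in AP.mid2 at 1 h. The part of the small E12 sums in the first 6 was not tested.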

How the results depend on the processing

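By replicate number, no paired analysis was possible because the labels carry none. The 24 h and 1 h sums share injection days, and with the day as a factor the time test of AP.mid2 called 0 of 8696 genes in edgeR (439 at an unadjusted p under 0.05). The percent of tested genes past the rule, over both directions, is given in the order AP.mid1 and AP.mid2 against AP.early, AP.mid1 and AP.mid2 against AP.late, AP.mid2 against AP.mid1 and AP.mid2 against AP.late at 24 h, and a setting is given where the number of such genes moved by over 1.5 times. With a pseudocount of 20 CPM it was 2.87%, 2.3%, 0.781%, 1.94%, 0.992% and 2.31%, against 6.1%, 5.07%, 2.56%, 3.22%, 1.57% and 4.22% with 5 CPM. Leaving out 1 day left fewer days to pass and gave 14.5% to 20.3%, 15.0% to 15.7%, 8.58% to 10.2%, 5.66% to 13.3%, 2.7% to 3.68% and 9.68% to 14.2%. A minimum of 10 cells gave 2.7% for AP.mid2 against AP.mid1 and 30.9% at 24 h, where E14 alone was left, and left no day against AP.early. No minimum CPM gave 2.78% at 24 h. In the fits, where edgeR called 0 genes, DESeq2 called 0.989% for time and 2.5% and 3.21% for the slopes of AP.mid2 and AP.mid1, and voom, chosen after seeing the data, 0.287%, 1.22% and 0.317%. No filter on low counts gave 0.0254%, 0.0318% and 1.01%. Equal weight of cells gave 0.0115% for time and 0.0115% for the AP.mid2 slope, both clusters summed gave 0.0113% for that slope, and run code as a term gave 0.0122% for the AP.mid1 slope. Leaving out 1 sum gave 0.0% to 0.024% for the AP.mid2 slope and 0.0% to 7.9% for the AP.mid1 slope. Beyond the fewer days and sums, the cause of these differences was not tested. The 24 h minus 1 h difference in share turned to -14.4 points for AP.mid2 with all cells as denominator. For both clusters together it was -6.42 points and ranged from -22.7 to 5.16 with 1 condition left out, turning positive without E13 at 1 h (5.16), E14 at 1 h (2.31) and E15 at 24 h (4.09). Of 1240 recomputed values of single genes 1057 kept side and size, 59 passed a threshold, 0 turned sign and the others moved. The median position with CPM averaged over cells, also chosen after seeing the data, was 0.62 in AP.mid1 and 0.51 in AP.mid2. Sums of few cells and counts that are reads limit the precision.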

Other observations

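At 96 h after injection 8 cells carried the AP.mid2 label, over all 4 days. All 8 had reads of Vim (1086 to 2553 CPM, median 1999), of Mki67, a proliferation marker (339 to 3253 CPM, median 838), and of Fabp7 (1060 to 11660 CPM, median 7273). Cdc20 was read in 7 of them and Ccnb1 in 6, with medians of 251.9 and 531 CPM. Top2a was read in 4, with a median of 4.57 CPM. Pax6 was read in all 8, but from 1.74 to 2369 CPM (median 172.5). Sox2 was read in 7 (median 233.7 CPM) and Hes1 in 2 (median 0 CPM, up to 963 CPM). Zbtb20 was read in all 8 (498 to 3402 CPM), and Aldoc, of astrocytes and late progenitors, in 6. Of astrocyte markers, Aldh1l1 was read in 6 cells (median 106.4 CPM, up to 1758 CPM) and Gja1 in 3, and Gfap and Aqp4 in 0. Of interneuron markers, Gad2 was read in 4 cells (up to 24.4 CPM), Dlx1 in 3 (up to 471 CPM), Dlx2 in 1 and Gad1 in 0. The neuron markers Tubb3, Dcx, Neurod2 and Neurod6 were read in all 8, with medians of 75.02, 199.1, 9.40 and 21.5 CPM. Hmga2, Olig1 and Olig2 were read in 0 cells. Summed by day, the G2 and M phase list stood at 10440 to 17590 CPM in these cells, from 1 to 3 cells a day.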
